A study of Homo sapiens with 8 samples.

Results

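The enzymes that write methyl groups onto cytosine in DNA and the proteins that read them were followed across 8 arrays. The set holds 10 genes, taken as listed by name: the methyltransferases DNMT1, DNMT3A and DNMT3B, the hemimethylated-DNA readers UHRF1 and UHRF2, the methyl-CpG-binding domain family genes MBD1, MBD2, MBD3 and MBD4, and ZBTB33, which encodes the zinc finger protein Kaiso. They are measured by 11 probe sets and are 10 of the 18417 named genes in the table. UHRF1 has 2 probe sets and each other gene has 1. The arrays hold 2 established prostate cancer cell lines, LNCaP, which responds to androgen, and DU145, which grows without it. Each line was transfected for 72 h with 1 of 4 constructs, namely an siRNA against TET2 (siTET2), its control siRNA (siControl), miR-29b, or a negative control miRNA (nc). There is 1 array for each line and construct, so a difference between 2 arrays of a line has no p-value. TET2 oxidises methylated cytosine, the first step of active demethylation. Loss of TET2 transcript and other actions of the siRNA cannot be told apart here, since siTET2 is the one label for reagents against TET2 and does not say whether it was a single siRNA or a pool.

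DNA methylation in mammals sits mostly on cytosines followed by guanine. After replication the new strand lacks the mark; UHRF1 binds such half-methylated sites and brings DNMT1, which copies the mark across, so both genes work at the replication fork. DNMT3A and DNMT3B set marks on unmethylated DNA. UHRF2 is the close relative of UHRF1. MBD1 and MBD2 bind methylated CpG sites and bring repressive complexes, MBD3 is the family member of the NuRD complex that binds methylated DNA poorly in mammals, MBD4 is a glycosylase that removes thymine left when methylcytosine deaminates, and Kaiso reads both methylated CpG sites and an unmethylated sequence of its own. In cancer cells these proteins are studied because methylated promoters of growth-restraining genes stay silent. The miR-29 family is known to repress DNMT3A and DNMT3B in other cancer cells.

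The transfected miRNA shares its seed, the stretch that pairs with target transcripts, with the other members of its family. Mature sequences from RefSeq (build GRCh38.p14) are given 5′ to 3′ with bases 2 to 8, the seed AGCACCA, in capitals. The labels do not say which arm was transfected, and the 3p arms are shown because they carry this shared seed.
hsa-miR-29b-3p: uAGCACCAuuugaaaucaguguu
hsa-miR-29a-3p: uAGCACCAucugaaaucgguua
hsa-miR-29c-3p: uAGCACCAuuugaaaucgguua
The miR-29b arm is encoded at chr1:207802450-207802472 and chr7:130877467-130877489, both on the minus strand.

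The windows around the transcript start of the 3 genes that lay lowest with siTET2 in the fit over both lines follow, from 250 bases before to 50 bases after the start (RefSeq, build GRCh38.p14). Capitals mark matches on either strand to TTGGCGC or to TTCCCGC or to TTGGCGG, letters like those that E2F factors, the regulators of S phase genes, are known to bind. UHRF1 has 3 such windows in the table, of which the one with matches is shown (chr19:4909251-4909550, plus strand). DNMT1 (chr19:10194904-10195203, minus strand) and ZBTB33 (chrX:120250562-120250861, plus strand) have 1 each.
UHRF1: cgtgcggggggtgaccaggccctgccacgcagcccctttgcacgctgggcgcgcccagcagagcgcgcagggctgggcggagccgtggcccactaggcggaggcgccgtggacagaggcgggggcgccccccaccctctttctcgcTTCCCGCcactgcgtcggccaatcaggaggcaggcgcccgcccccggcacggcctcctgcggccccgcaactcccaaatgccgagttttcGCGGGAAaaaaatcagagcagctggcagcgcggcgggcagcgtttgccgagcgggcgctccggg
DNMT1: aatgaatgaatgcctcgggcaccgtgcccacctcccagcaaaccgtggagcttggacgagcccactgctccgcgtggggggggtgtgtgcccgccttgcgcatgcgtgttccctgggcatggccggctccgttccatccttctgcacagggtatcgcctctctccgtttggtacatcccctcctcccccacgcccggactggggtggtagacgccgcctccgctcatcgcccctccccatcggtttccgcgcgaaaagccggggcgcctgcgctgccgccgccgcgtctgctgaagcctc
ZBTB33: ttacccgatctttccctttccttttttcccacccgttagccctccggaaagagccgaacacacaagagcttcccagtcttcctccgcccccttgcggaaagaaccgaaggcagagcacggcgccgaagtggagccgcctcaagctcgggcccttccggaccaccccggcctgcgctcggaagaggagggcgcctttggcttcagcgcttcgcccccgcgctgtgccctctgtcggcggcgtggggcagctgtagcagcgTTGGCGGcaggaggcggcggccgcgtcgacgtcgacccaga
The UHRF1 window holds matches at positions -104 and -14 from the start, the ZBTB33 window holds 1 at position 9, and the DNMT1 window holds none of these letters. Other forms of E2F-like letters were not searched, so the DNMT1 window is not shown to lack them. Of the 17 windows of the 10 genes, 4 hold a match, 1 each of UHRF1, UHRF2, MBD3 and ZBTB33, against 12.1% of 35116 promoters in the table. The letters CCTGCNA, like Kaiso's unmethylated sequence, occur in 1 of the 17 windows, that of UHRF1 shown here, against 17.3% of promoters. The windows are rich in CpG. All but that of DNMT3B hold 18 to 46 CpG sites, DNMT3B's holds 3, and the median over all promoters in the table is 14. These matches are letters in a window and not measured sites.

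The 2 lines carried the markers of their labels. LNCaP arrays held 5 or 6 of 6 measured LNCaP markers above their own median and 0 of 8 DU145 markers, and DU145 arrays held 1 and 7. Each array held 1 of 7 immune markers and at most 1 of 8 fibroblast markers above its median. TET2 itself was at 7.89 log2 units with siTET2, against 9.01 with siControl, in LNCaP, and at 6.60 against 7.85 in DU145. The median of the named genes was 7.63 to 7.70 in LNCaP arrays and 7.36 to 7.42 in DU145 arrays, so levels of the lines are set side by side below only as positions within an array. In cell populations measured as a whole, fewer cells of a kind and less RNA per cell cannot be told apart.

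DNMT1 and UHRF1, the pair that copies methylation at replication, were lower with siTET2 in both lines. DNMT1 stood at 10.05 log2 units in LNCaP cells with siTET2, against 10.48 with siControl and 10.37 with nc. In DU145 cells it stood at 10.41 with siTET2, against 10.66 with siControl and 10.85 with nc. The siTET2 array was the lowest of its line for DNMT1 both times. UHRF1 stood at 9.29 in LNCaP cells with siTET2, against 9.65 with siControl and 9.69 with nc, and at 10.06 in DU145 cells with siTET2, against 10.31 with siControl and 10.58 with nc. It too was lowest with siTET2 in each line.

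The log2 difference of DNMT1 (siTET2 minus siControl) was -0.43 in LNCaP, 1.34-fold lower, and -0.25 in DU145, 1.19-fold lower. That of UHRF1 was -0.36 in LNCaP, 1.28-fold lower, and -0.25 in DU145, 1.19-fold lower. Among the genes above the level floor, which asks that the higher of the 2 arrays reach its array's median, DNMT1 sat at percentile 4.94 of the LNCaP differences and 12.7 of the DU145 differences, and UHRF1 at 6.73 and 12.5, counted from the lowest. The difference between the 2 control arrays (siControl minus nc) gives the scale of change without a treatment. For DNMT1 it was 0.11 in LNCaP and -0.19 in DU145, and for UHRF1 -0.05 in LNCaP and -0.27 in DU145. In DU145 the control arrays thus lay farther apart in UHRF1 than the siTET2 array lay from siControl. Against nc in place of siControl, DNMT1 differed by -0.32 in LNCaP and -0.44 in DU145, and UHRF1 by -0.40 and -0.52. The second probe set of UHRF1 (8032922) lay below the level floor in all 8 arrays, at 6.56 to 6.84 in LNCaP and 5.55 to 6.23 in DU145. It did not follow the first (8024900). Its difference with siTET2 was -0.07 in LNCaP and 0.36 in DU145.

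**Figure D1:**
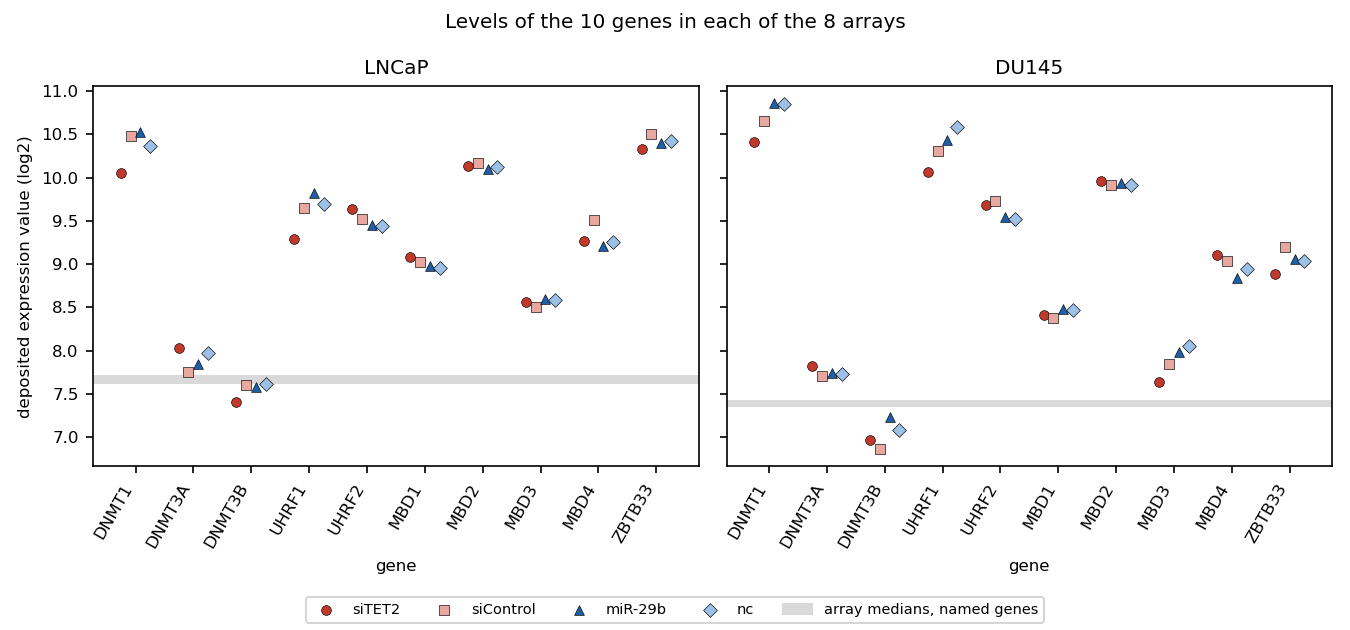
Log2 level of each of the 10 genes (x axis) in LNCaP (left panel) and DU145 (right panel), with 1 point per array and construct and a grey band over the medians of named genes on the 4 arrays of the line. In both panels the siTET2 point is the lowest for DNMT1 and UHRF1, and DNMT3B lies below the band. Different probe sets are not to be ranked by height.

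Genes of DNA replication were examined in the same arrays. Of 33 S phase genes tested, a list of replication origin, fork and nucleotide genes with their regulators, 32 had a common difference below 0 with siTET2, where 50.1% of all genes did, and 24 had an unadjusted p below 0.05, where 13.7% did, but 0 passed the limma test adjusted over all genes. Their median common difference was -0.38, beside -0.00025 over all 9209 genes tested. By line their median difference was -0.57 in LNCaP and -0.16 in DU145 against siControl, and -0.32 and -0.19 against nc. Below 0 lay 32 of the 33 in LNCaP and 26 in DU145 against siControl, and 31 and 24 against nc. The genes with the largest common differences were DSCC1, GINS1 and MCM10. GINS1, part of the replicative helicase, differed by -0.79 in LNCaP and -0.39 in DU145 against siControl, and by -0.62 and -0.37 against nc (limma adjusted p = 0.0680). MCM10, a replication initiation factor, differed by -0.87 and -0.27 against siControl, and by -0.66 and -0.35 against nc (limma adjusted p = 0.116). DSCC1, a cofactor of sister chromatid cohesion, depended on the control. It differed by -0.83 and -0.72 against siControl (limma adjusted p = 0.0645), but by 0.10 in LNCaP and -0.37 in DU145 against nc, with the controls 0.92 and 0.35 apart. Against siControl in LNCaP, 28 of the 33 genes differed more negatively than DNMT1 and 31 more negatively than UHRF1. In DU145, 10 of the 33 lay below DNMT1 and 10 below UHRF1. Against siControl, the pair therefore lay nearer 0 than most of the list in LNCaP and farther from 0 than most of it in DU145. The LNCaP placement depended on the control. Between the controls (siControl minus nc) the list's median was 0.24 in LNCaP and 0.0041 in DU145. Against nc in LNCaP, DNMT1 differed by -0.318 and UHRF1 by -0.403, beside the list median of -0.317. Against nc in DU145 they differed by -0.44 and -0.52, beside -0.19. The part of replication or of the share of cycling cells in the lower DNMT1 and UHRF1 values was not tested.

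**Figure D2:**
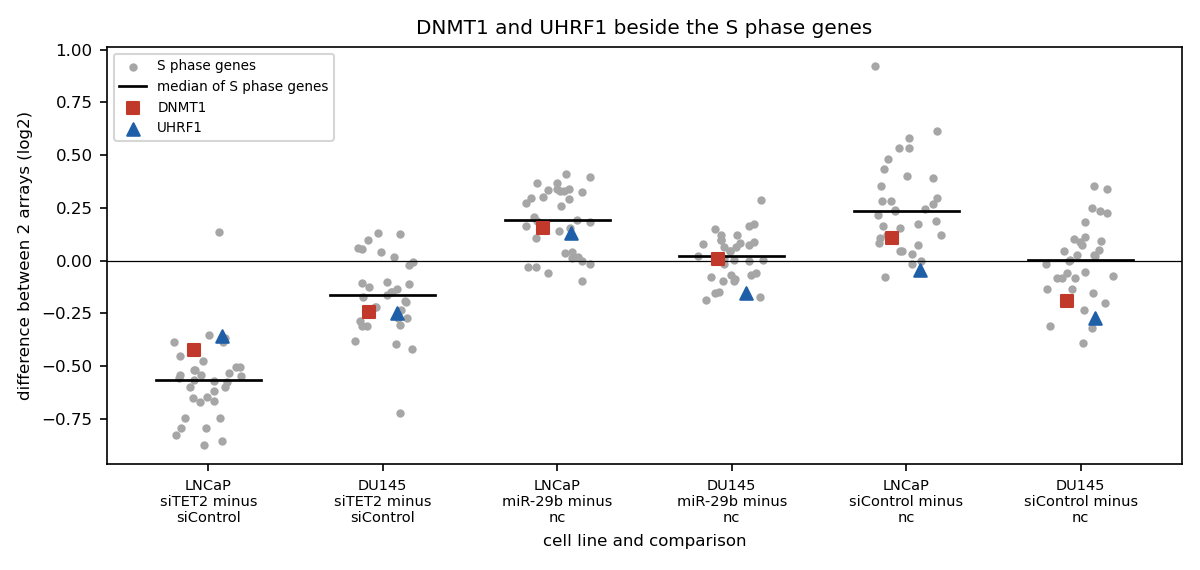
Log2 difference (y axis) of 33 S phase genes (grey), their median (black bar), DNMT1 (red square) and UHRF1 (blue triangle) in 6 columns, 1 per line and pair of arrays. For siTET2 minus siControl in LNCaP the median is -0.57, with DNMT1 at -0.43 and UHRF1 at -0.36 above it. In DU145 the median is -0.16 and both genes, at -0.25, lie below it.

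Of the partners of the maintenance step, 1 passed the test, where 0.38% of all genes did. Those tested were 9, among them the sliding clamp PCNA, the ubiquitin protease USP7 and the remodeller HELLS. Of these, 8 had a common difference below 0 with siTET2, where 50.1% of all genes did, and the median was -0.26. CDCA7L, a relative of the HELLS partner CDCA7, stood at 9.08 with siTET2, against 9.76 with siControl, in LNCaP and at 9.33 against 9.80 in DU145. Its common log2 difference was -0.58 (SE 0.0897) and it fell by limma's test (adjusted p = 0.0439). The call was lost in 12 of 15 alternatives. With all arrays it was lost against nc (limma adjusted p = 0.0776), with no floor (0.230), under joint quantile normalization (0.0536) and without the line term (0.9999). The other losses came on leaving out a single array, where the difference was -0.65 to -0.50. The difference stayed below 0 in all 15, though many of these settings cannot alter it. PCLAF, the clamp-associated factor that takes part in DNMT1 recruitment, differed by -0.41 (limma adjusted p = 0.174), and HELLS by -0.39 (limma adjusted p = 0.284), of which -0.73 in LNCaP and -0.04 in DU145. The list's median was -0.45 in LNCaP and -0.09 in DU145 against siControl, and -0.24 and -0.17 against nc.

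DNMT3A, a de novo methyltransferase, ran the other way in both lines, whereas DNMT3B differed from siControl with opposite signs in the lines. DNMT3A stood at 8.03 in LNCaP cells with siTET2, against 7.76 with siControl and 7.97 with nc, and at 7.83 in DU145 cells with siTET2, against 7.71 with siControl and 7.74 with nc. Its siTET2 array was the highest of each line, but in LNCaP it lay 0.27 above siControl and only 0.06 above nc, with the controls themselves -0.22 apart. DNMT3B lay below the level floor in all 8 arrays. It stood at 7.40 in LNCaP cells with siTET2, against 7.61 with siControl and 7.62 with nc, and at 6.97 in DU145 cells with siTET2, against 6.86 with siControl and 7.09 with nc. In LNCaP the siTET2 array was the lowest and in DU145 it lay between the controls.

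UHRF2 lay apart from UHRF1. It stood at 9.64 in LNCaP cells with siTET2, against 9.52 with siControl and 9.44 with nc, and at 9.69 in DU145 cells with siTET2, against 9.73 with siControl and 9.52 with nc. The siTET2 array was the highest in LNCaP and lay between the controls in DU145, where the difference between the controls, 0.21, was the larger one.

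ZBTB33, the third gene that was lower with siTET2 in both lines, stood at 10.32 in LNCaP cells with siTET2, against 10.51 with siControl and 10.42 with nc. In DU145 cells it stood at 8.88 with siTET2, against 9.20 with siControl and 9.03 with nc. Both times the siTET2 array held the lowest value. The differences from siControl were -0.18 in LNCaP and -0.32 in DU145, at percentiles 16.9 and 7.95 of all differences above the floor. Against nc they were -0.10 and -0.15, and the controls differed by 0.09 and 0.17. Of 8 tested genes of Kaiso's and methylated histone H3 partners, 5 had a common difference below 0, where 50.1% of all genes did. Of the 8, 0 passed the limma test, and the median was -0.10. SUV39H1, a histone methyltransferase, differed by -0.47 in LNCaP and -0.08 in DU145 (limma adjusted p = 0.380).

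MBD1 and MBD2, the readers that bind methylated CpG sites, differed little between siTET2 and siControl. MBD1 stood at 9.08 in LNCaP cells with siTET2, against 9.02 with siControl, and at 8.42 in DU145 cells with siTET2, against 8.38 with siControl. MBD2 stood at 10.13 with siTET2, against 10.17 with siControl, in LNCaP and at 9.97 against 9.92 in DU145. Both genes stayed within 0.06 log2 units of siControl in each line.

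MBD3 and MBD4 gave values of opposite sign in the lines. MBD3 stood at 8.56 with siTET2, against 8.51 with siControl and 8.58 with nc, in LNCaP, and at 7.64 with siTET2, against 7.85 with siControl and 8.05 with nc, in DU145. Its siTET2 array was the lowest in DU145 and lay between the controls in LNCaP. MBD4 stood at 9.26 with siTET2, against 9.51 with siControl and 9.25 with nc, in LNCaP, and at 9.11 with siTET2, against 9.04 with siControl and 8.95 with nc, in DU145. In LNCaP the siControl array was the one that stood apart, 0.26 above nc, and the siTET2 array lay 0.01 above nc.

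Genes that work with the MBD proteins were examined as lists. Of 12 NuRD genes tested, 7 had a common difference below 0 with siTET2, where 50.1% of all genes did. Of the 12, 0 passed the limma test, and the median was -0.05. The histone-binding subunit RBBP7 differed by -0.39 in LNCaP and -0.61 in DU145 (limma adjusted p = 0.0664), CDK2AP1 by -0.23 and -0.48 (limma adjusted p = 0.175) and RBBP4, which is also a subunit of a replication-coupled chromatin assembly factor, by -0.29 and -0.25 (limma adjusted p = 0.207). Of 5 other methyl-CpG and MBD-domain genes tested, all 5 had a common difference above 0, where 50.1% of all genes lay below 0. Of the 5, 0 passed the test, and the median was 0.05. Against nc, 4 of 5 above the floor lay below 0 in LNCaP and 2 of 5 in DU145. ZBTB4, a zinc finger relative of Kaiso, differed by 0.21 in LNCaP and 0.31 in DU145 (limma adjusted p = 0.282).

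No member reached a 1.5-fold difference with siTET2 in either line, where 2.75% of genes did in LNCaP and 2.55% in DU145. The control arrays gave 2.31% and 0.341% at that size, again with 0 members. No member reached 2-fold in any pair of arrays; with siTET2 0.149% of genes did in LNCaP and 0.34% in DU145, between the controls 0.136% and 0.0427%. Differences below 0 with siTET2 were found for 5 of 9 members above the floor in LNCaP, where 46.9% of genes lay below 0, and for 5 of 9 in DU145, where 52.7% did. Between the controls (siControl minus nc), 3 of 9 lay below 0 in LNCaP (46.1% of genes) and 5 of 9 in DU145 (57.7%). Against siControl, the largest difference among the members above the floor was -0.43 (DNMT1) in LNCaP and -0.32 (ZBTB33) in DU145; against nc it was that of UHRF1 in both lines, -0.40 and -0.52. The median over these 9 members was -0.04 in each line, beside 0.01 and -0.01 over all genes above the floor. Of the 9, DNMT1, UHRF1 and ZBTB33 had a siTET2 array below both control arrays in both lines, where 16.6% of 8417 genes did, and DNMT3A had it above both controls in both lines, where 14.8% did. In single lines, 3 members lay below both controls in LNCaP (25.8% of genes did) and 4, with MBD3, in DU145 (43.6%), and 3 lay above them in LNCaP (33.7%: DNMT3A, UHRF2 and MBD1) and 3 in DU145 (33%: DNMT3A, MBD2 and MBD4). The members' shares were not tested against these.

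**Figure D3:**
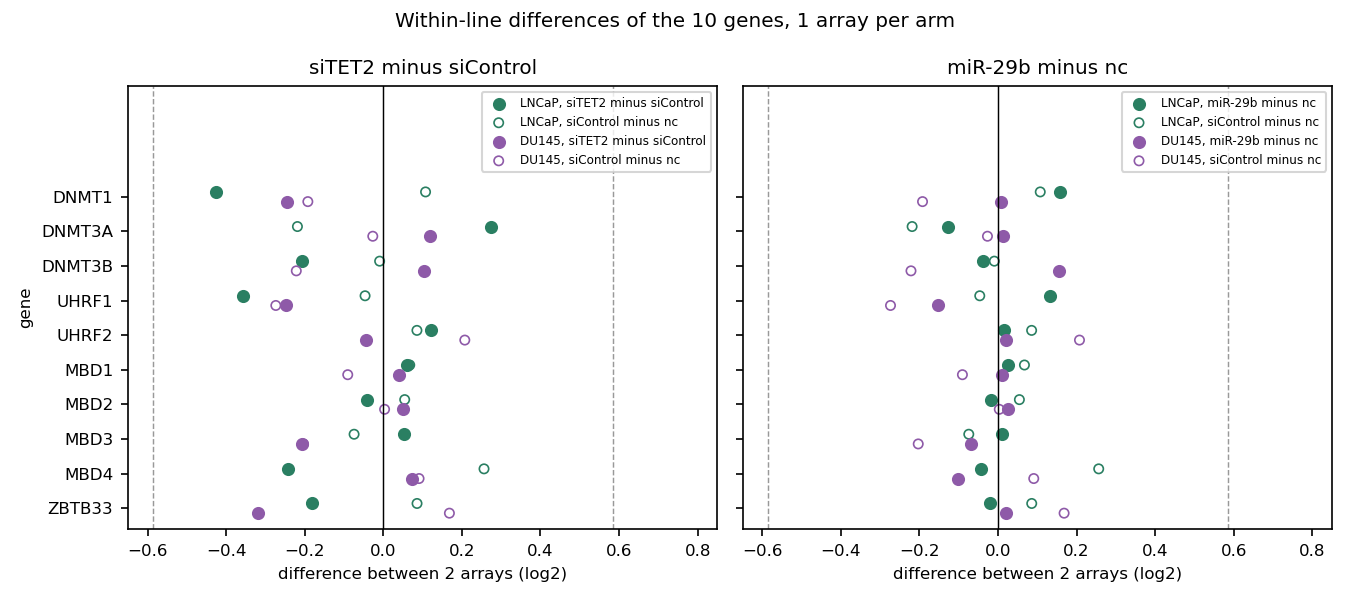
Log2 difference of each gene (rows) for siTET2 minus siControl and miR-29b minus nc (filled points) beside siControl minus nc (open circles), LNCaP in green and DU145 in purple, with dashed lines at 1.5-fold. All points lie inside the dashed lines; with siTET2 the lowest are DNMT1 at -0.43 and UHRF1 at -0.36 in LNCaP, and many filled points lie no farther from 0 than the open circles.

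The effect shared by both lines was tested with limma over all 8 arrays, in which each construct's 2 arrays serve as its replicates after the line difference is removed. With siTET2, 3 genes rose and 32 fell of 9209 at a Benjamini-Hochberg adjusted p below 0.05, which is 0.38% of genes, and 0 of the 9 members tested were among them. At an unadjusted p below 0.05, 3 of the 9 members were lower and none higher, where 13.7% of genes passed in either direction and 8.27% were lower. In all, 5 of the 9 members had a common difference below 0, as 50.1% of genes did. For siControl minus nc the same fit passed 0 genes (0%), with 13.2% of genes at an unadjusted p below 0.05 and 6.29% lower, and 0 of the 9 members were among those; 5 of the 9 lay below 0, as 52.1% of genes did. DNMT1 differed by -0.34 (SE 0.0969, 95% interval -0.56 to -0.11, unadjusted p = 0.00772, limma adjusted p = 0.181), lower in 2 of 2 lines. UHRF1 differed by -0.30 (SE 0.0973, interval -0.52 to -0.08, limma adjusted p = 0.214) and ZBTB33 by -0.25 (SE 0.0856, interval -0.45 to -0.06, limma adjusted p = 0.237), both lower in 2 of 2 lines. DNMT3A differed by 0.20 (SE 0.0901, interval -0.0084 to 0.40, limma adjusted p = 0.379), higher in 2 of 2 lines. The other 5 members tested had common differences of -0.09 (MBD4) to 0.05 (MBD1), with limma adjusted p-values from 0.742 to 0.990. DNMT3B entered only the fit with no floor, where it differed by -0.05 (SE 0.123, interval -0.33 to 0.23, limma adjusted p = 0.934). A miss of the threshold does not show that a gene stayed the same. The intervals allow DNMT1 to be down to 0.680-fold of siControl, and they allow MBD2 to lie between 0.878-fold and 1.15-fold.

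**Figure D4:**
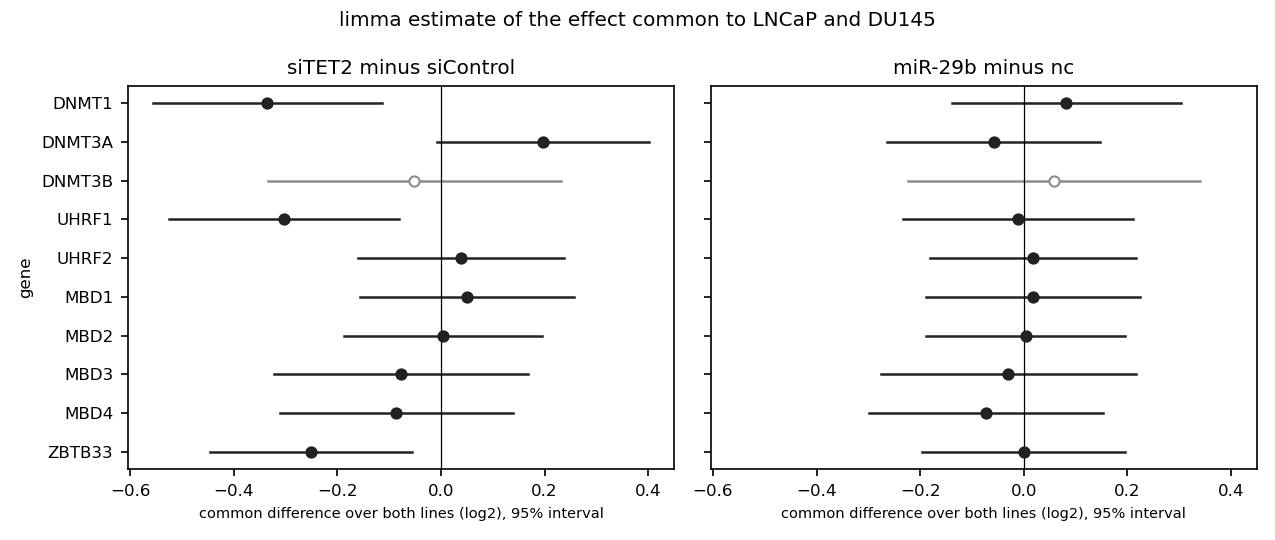
Common log2 difference over both lines with its 95% interval from limma, for siTET2 minus siControl and miR-29b minus nc, for 9 members in the fit with the floor and DNMT3B (open, grey) from the fit with none. With siTET2 the unadjusted intervals of DNMT1 (-0.56 to -0.11), UHRF1 (-0.52 to -0.08) and ZBTB33 (-0.45 to -0.06) lie below 0; with miR-29b every interval spans 0.

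With miR-29b neither of the known targets DNMT3A and DNMT3B was lower than both controls in both lines. DNMT3A stood at 7.85 in LNCaP cells with miR-29b, against 7.97 with nc and 7.76 with siControl, and at 7.75 in DU145 cells with miR-29b, against 7.74 with nc and 7.71 with siControl. The LNCaP value lay between the control arrays and the DU145 value just above both. DNMT3B stood at 7.58 in LNCaP cells with miR-29b, against 7.62 with nc and 7.61 with siControl, and at 7.24 in DU145 cells with miR-29b, against 7.09 with nc and 6.86 with siControl. It was thus lower than both controls by at most 0.04 in LNCaP and higher than both in DU145, by 0.15 over nc and 0.38 over siControl, at signals below the floor. In the limma fit DNMT3A differed by -0.06 (95% interval -0.26 to 0.15, or 0.833-fold to 1.11-fold, limma adjusted p = 0.995). DNMT3B differed by 0.06 in the fit with no floor (interval 0.856-fold to 1.27-fold, limma adjusted p = 0.9998). Since DNMT3B's probe set lay below the floor on every array, its interval sets no bound on a fall of its transcript. For DNMT3A, a fall below 0.833-fold lay outside the unadjusted interval, and a smaller fall lay inside it. Its probe set lay only just above the floor, at percentiles 51.8 to 56.5 of its arrays, so this bound is weak. Protein was not measured.

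DNMT1 stood at 10.53 in LNCaP cells with miR-29b, against 10.37 with nc and 10.48 with siControl, and at 10.86 in DU145 cells with miR-29b, against 10.85 with nc and 10.66 with siControl. It was the highest array of each line, by 0.05 and 0.0068 over the nearer control. UHRF1 stood at 9.82 in LNCaP cells with miR-29b, against 9.69 with nc and 9.65 with siControl, and at 10.43 in DU145 cells with miR-29b, against 10.58 with nc and 10.31 with siControl. It was above both controls in LNCaP and between them in DU145. With the same miRNA the S phase genes had a median difference from nc of 0.19 in LNCaP and 0.02 in DU145, and from siControl of -0.04 and 0.01.

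Of the readers, MBD4 was the one member with a miR-29b array below both controls in both lines, where 10.4% of 8410 genes did so. It stood at 9.21 in LNCaP cells with miR-29b, against 9.25 with nc and 9.51 with siControl, and at 8.84 in DU145 cells with miR-29b, against 8.95 with nc and 9.04 with siControl. Its differences from nc were -0.04 and -0.10 and its common difference was -0.07 (95% interval -0.30 to 0.15, limma adjusted p = 0.995). DNMT1 was the one member above both controls in both lines, where 6.24% of genes did so. In single lines, miR-29b arrays lay below both controls for 3 members in LNCaP (23.2% of genes did) and 1 in DU145 (37.5%), and above them for 3 members in LNCaP (30%) and 4 in DU145 (19.8%).

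UHRF2, MBD1, MBD2, MBD3 and ZBTB33 differed from nc by no more than 0.07 log2 units in either line. ZBTB33, for example, stood at 10.40 with miR-29b, against 10.42 with nc, in LNCaP and at 9.05 against 9.03 in DU145. From siControl in DU145, UHRF2 differed by -0.19, MBD1 by 0.10, MBD2 by 0.02, MBD3 by 0.13 and ZBTB33 by -0.15. In LNCaP these values were -0.07, -0.04, -0.07, 0.08 and -0.11. Against nc, no member reached 1.5-fold, where 0.847% of genes did in LNCaP and 0.117% in DU145, or 2-fold, where 0.0953% and 0% did. Below 0 lay 4 of 9 members in LNCaP (44.9% of genes) and 3 of 9 in DU145 (65.1%). The median over the 9 members above the floor was 0.01 in each line, beside 0.02 and -0.04 over all genes. With limma, 0 of 9209 genes passed the adjusted threshold for miR-29b (0%), and 344 (3.74%) had an unadjusted p below 0.05, with 2.65% of genes both under it and lower. A common difference below 0 was found for 5 of the 9 members and 51.7% of genes. Of the 9 members, 0 had an unadjusted p below 0.05, with unadjusted p-values of 0.422 to 0.996 and limma adjusted p-values of 0.995 to 0.9999.

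The lists around the members gave 0 genes that passed with miR-29b. The medians were 0.07 for the maintenance partners, -0.01 for NuRD, -0.07 for other methyl-CpG and MBD-domain genes, -0.06 for Kaiso's and histone partners, and 0.02 for demethylation and base excision. In the last of these, the oxidases TET3 and TET2 had common differences of -0.45 and -0.41. Each had a limma adjusted p of 0.995, the lowest of any gene with miR-29b, and their unadjusted limma p-values were 0.00855 and 0.0100. Of the 8 genes of that list tested, 2 had an unadjusted p below 0.05, where 3.74% of all genes did. TET3 differed from nc by -0.63 in LNCaP and -0.26 in DU145, and TET2 by -0.64 and -0.18. From siControl these values were -0.53 and -0.32 for TET3, and -0.41 and -0.06 for TET2. With siTET2, 1 gene of that list passed, TET2 itself. It fell, with a common log2 difference of -1.18 and an SE of 0.124 (adjusted p from limma 0.0178). The call was lost in the fit with no floor (limma adjusted p = 0.0730) and without the line term (0.9999). It was also lost without the LNCaP siControl array, the DU145 siTET2 array or the DU145 siControl array, where the difference was -1.17, -1.08 and -1.20. The second TET2 probe set (8096669) differed from siControl by -0.85 in LNCaP and -0.91 in DU145. GADD45A, a stress gene tied to demethylation, differed from siControl by 0.42 in LNCaP and 0.55 in DU145 with siTET2 (limma adjusted p = 0.281). Against nc it differed by 0.61 and 1.02, with the controls themselves 0.19 and 0.47 apart.

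Several members, though not all, sat at different positions within the arrays of the lines, whichever construct was used. As a percentile among the 18417 named genes, ZBTB33 lay at 89.4 to 90.5 in LNCaP arrays and at 72.3 to 76.9 in DU145 arrays. UHRF1 lay at 75.6 to 83.5 in LNCaP and at 87.6 to 91.8 in DU145, and DNMT1 at 86.3 to 90.9 in LNCaP and at 91.1 to 94.1 in DU145. For all 3 genes the 4 arrays of a line did not overlap those of the other. MBD1 lay at 70.6 to 72.2 in LNCaP and 64.7 to 66.5 in DU145, MBD3 at 63.1 to 64.6 and 53.7 to 59.0, and MBD2 at 86.8 to 87.4 and 85.8 to 86.7. UHRF2 lay at 78.2 to 80.9 in LNCaP and 80.9 to 83.9 in DU145, which touch to the first decimal. Of the 9 members above the floor, 4 thus lay higher in all LNCaP arrays, where 38.4% of 9208 genes did, and 3 higher in all DU145 arrays, where 31.6% did. With probe sets averaged the count for DU145 was 1, DNMT1, since UHRF1 then lay at 54.0 to 59.6 in LNCaP and 58.1 to 64.6 in DU145 and the ranges of UHRF2 met as well. Overlapping ranges were found for DNMT3A (51.8 to 55.3 in LNCaP, 54.6 to 56.5 in DU145), MBD4 (74.2 to 78.6, 72.0 to 75.7) and DNMT3B (45.8 to 49.7, 43.0 to 48.0). The lines were not tested against each other, since the 4 arrays of a line carry 4 different constructs. The members' shares were likewise not tested against those of all genes, so the members are not shown to stand apart from other genes.

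**Figure D5:**
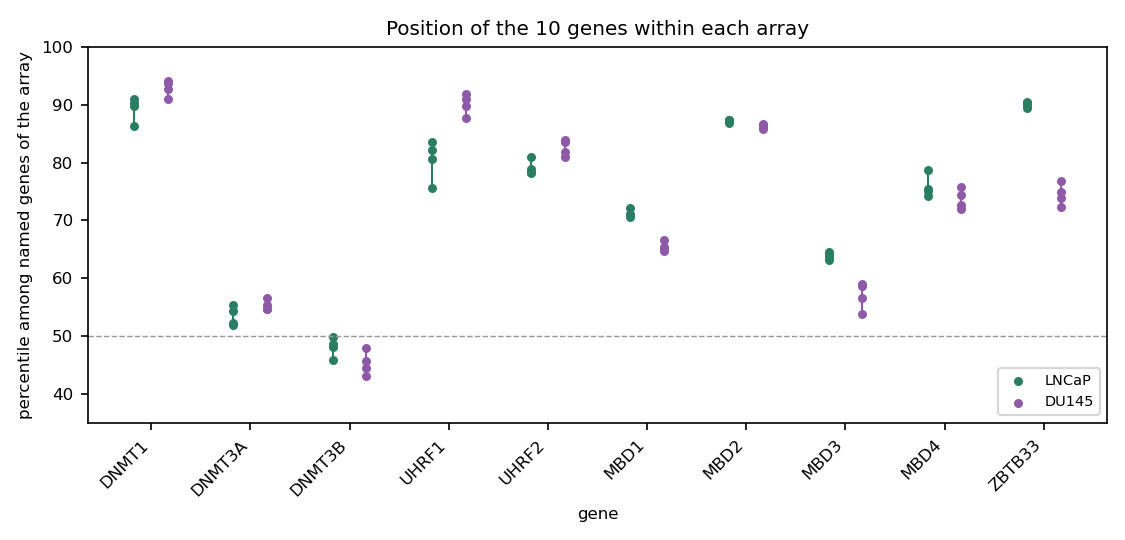
Percentile of each gene among the 18417 named genes of its array (axis from low to high, with a line at 50), with 4 arrays per line. ZBTB33 is at 89.4 to 90.5 in LNCaP and 72.3 to 76.9 in DU145, UHRF1 is higher in DU145, and DNMT3A and DNMT3B lie near 50 in both lines.

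Across the 8 arrays, after each gene was centred on its mean in each line, DNMT1 and UHRF1 varied alike (Pearson r = 0.955, with 36 as UHRF1's rank among 9209 genes by likeness to DNMT1). UHRF2 ran opposite to both (r = -0.80 with DNMT1 and -0.85 with UHRF1), and DNMT3A opposite to DNMT1 (r = -0.73). UHRF1 here is its first probe set (8024900), which the second did not follow. By likeness to DNMT1, 95.8% of genes lay above UHRF2 and 93.4% above DNMT3A. By likeness to UHRF1, 97.8% lay above UHRF2. These are descriptions over 8 arrays that share constructs and control arrays, and 193 genes had an r over 0.9 with DNMT1 and 183 with UHRF1. The nearest genes were MYO19 (0.994) and REXO5 (0.989) for DNMT1, MTCH1 (0.996) and NEK4 (0.992) for UHRF1, SNORA23 (0.967) and UAP1L1 (0.965) for DNMT3A, and SMURF2 (0.985) and LIG4 (0.971) for UHRF2. For the readers they were ZNF767P (0.987) and SNORA67 (0.970) for MBD1, BZW1 (0.972) and RNF138 (0.967) for MBD2, CYB561A3 (0.997) and EIF3I (0.994) for MBD3, ZNF714 (0.985) and RNF168 (0.980) for MBD4, and LRP12 (0.980) and HEATR5B (0.973) for ZBTB33.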

How the data were processed

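Transcript levels came from 8 Affymetrix whole transcript arrays, 1 per line and construct. The authors deposited 1 table of log2 values for 33297 probe sets, for which the submitters' processing notes name RMA and Affymetrix Expression Console. The table does not state which arrays were normalized together, and the array medians differ by line. Probe sets were named from the platform annotation, through RefSeq's gene table (0 symbols changed): 19460 had 1 gene symbol, 1754 several and 12083 none, which left 18417 genes. Where a gene had more than 1 probe set (769 genes), that of highest mean was used.

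Each treatment was set against its own control array within a line, with no p-value. A level floor at the array's 50th percentile applied to the higher array. The common effect was fitted with limma 3.58.1 (lmFit and eBayes, R 4.3.3) with construct and line as terms, 3 residual degrees of freedom, over the 9209 genes whose mean reached the median, with Benjamini-Hochberg adjustment at 0.05. Each construct has 1 array per line, so a p-value here sets the common effect against the departure of the lines from it. That departure mixes differences in response between LNCaP and DU145 with array-to-array spread. As the labels name no separate cultures, the array-to-array part may be technical. The number of arrays limits the precision. On simulated data over 9209 genes for siTET2 minus siControl, limma recovered 85% of 100 genes shifted by 1 on the log2 scale and 35% of 100 shifted by 0.5, with 2 false calls. The simulated noise was independent between genes, so the false calls do not give the error rate on the real arrays. No shift smaller than 0.5 was tried, and the members' common differences were all smaller.

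The members and lists were chosen with earlier results of these data known. All 10 members are named, TET2 as the siRNA's check, up to 3 genes of each list with the largest common difference for siTET2 and for miR-29b, and the 2 genes most like each member. Not every gene that met this rule is described in the text, above all for miR-29b, where no listed gene passed the test. Alternatives were the floor, the probe set rule, the other control, joint quantile normalization, a trend in eBayes, no line term and leaving out each array. Other tools were Python 3.11.15, pandas 2.3.3, numpy 2.4.6 and matplotlib 3.10.9.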

Additional observations from a re-analysis of the deposited data

Results flagged for a closer look

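Members whose difference took opposite signs in the 2 lines were singled out. The difference between the lines was not tested, as each line has 1 array per construct. With siTET2 minus siControl these were DNMT3B (-0.21 in LNCaP and 0.10 in DU145, a gap of -0.31), UHRF2 (0.12 and -0.04, a gap of 0.16), MBD2 (-0.04 and 0.05, a gap of -0.091), MBD3 (0.05 and -0.21, a gap of 0.26) and MBD4 (-0.24 and 0.07, a gap of -0.32). Opposite signs were thus found for 5 of the 10 members and for 37.9% of 8300 genes. With miR-29b minus nc they were DNMT3A (-0.13 and 0.01, a gap of -0.14), DNMT3B (-0.04 and 0.15, a gap of -0.19), UHRF1 (0.13 and -0.15, a gap of 0.28), MBD2 (-0.018 and 0.025, a gap of -0.043), MBD3 (0.010 and -0.069, a gap of 0.080) and ZBTB33 (-0.022 and 0.021, a gap of -0.042), where 47.7% of 8282 genes did so. The members with opposite signs with miR-29b were thus 6 of 10. DNMT3B, below the floor in all 8 arrays, is counted with both treatments. The shares are over 8300 and 8282 of the 18417 named genes, while the members were not filtered. The members' shares were not tested against them. For scale, siControl minus nc of the members above the floor ran to -0.27 (UHRF1 in DU145) and 0.26 (MBD4 in LNCaP).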

How the results depend on the processing

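The arrays are paired by cell line, which is a term of the fit throughout; no pairing by replicate number exists, as each group has 1 array. With 1 array per group and 2 per construct, small differences cannot be resolved, and probe sets below the floor, such as DNMT3B's, are measured poorly. No member passed limma's adjusted threshold under any alternative. With siTET2, DNMT1 kept its direction in all 15 alternatives (-0.44 to -0.23, limma adjusted p 0.0983 to 0.9999), as did UHRF1 (-0.46 to -0.26, limma adjusted p 0.0906 to 0.9999) and ZBTB33 (-0.30 to -0.12, limma adjusted p 0.134 to 0.9999), and DNMT3A did in all 14 (0.07 to 0.26). Many of these alternatives cannot alter the estimate. The floor, the trend, the line term, the probe set unit and leaving out an nc or miR-29b array gave the main fit's common difference again, -0.34 for DNMT1. A direction could change only against the other control, under joint quantile normalization or without a siTET2 or siControl array. CDCA7L passed in 3 of 15. Averaging UHRF1's probe sets turned its DU145 difference with siTET2 to 0.06. Of 100 within-line member values under alternatives for each treatment, 8 moved by more than 1 SD of siControl minus nc (0.243 in LNCaP, 0.168 in DU145), and 10 with siTET2 and 16 with miR-29b changed sign. The moves were against the other control array, apart from that of UHRF1 in DU145 with probe sets averaged. The other control shifts a value by that gene's gap between the control arrays. Averaging probe sets can alter only UHRF1, so many of the 100 values could not move.

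Common differences that reversed against the other control were MBD4 with siTET2 (0.088) and, with miR-29b, DNMT3A (0.065), UHRF1 (0.15), UHRF2 (-0.13), MBD2 (-0.025) and MBD3 (0.11); ZBTB33 with miR-29b gave 0.015 under joint quantile normalization. Leaving out 1 array at a time gave, with siTET2, UHRF2 -0.028 to 0.11, MBD1 -0.0091 to 0.11, MBD2 -0.036 to 0.043, MBD3 -0.24 to 0.081 and MBD4 -0.20 to 0.026, and with miR-29b DNMT1 -0.013 to 0.18, DNMT3A -0.12 to 0.0035, UHRF1 -0.11 to 0.094, MBD1 -0.040 to 0.077, MBD2 -0.020 to 0.027, MBD3 -0.13 to 0.069 and ZBTB33 -0.017 to 0.016. The cause was not tested.

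The 35 genes that passed with siTET2 over all genes became 1 with no floor, 87 with the stricter floor, 113 with a trend, 0 without the line term, 18 against the other control and 0 to 132 with 1 array left out. Genes past 2-fold with siTET2 in LNCaP numbered 14, then 22 with no floor and 9 with the stricter floor, and past 1.5-fold 259, then 154 with the stricter floor and 164 against the other control. In DU145 they numbered 32, then 20 with the stricter floor, and past 1.5-fold 240, then 399 with no floor, 136 with the stricter floor and 382 against the other control. With miR-29b in LNCaP, 9 past 2-fold became 18 with no floor and 2 with the stricter floor, and 80 past 1.5-fold became 195 and 27. In DU145, 0 past 2-fold became 3 with no floor and 5 against the other control, and 11 past 1.5-fold became 138 with no floor, 2 with the stricter floor and 34 against the other control. The count of members higher in all DU145 arrays was 1 in place of 3 when probe sets were averaged.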

Other observations

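Methionine cycle and folate enzymes, which supply the methyl group that DNMT enzymes transfer, were measured as a further list. Of 11 tested, 9 had a common difference below 0 with siTET2, where 50.1% of all genes did, and 4 had an unadjusted p below 0.05, where 13.7% did, but 0 passed limma's adjusted threshold; the median was -0.08, beside -0.00025 over all 9209 genes. SHMT2, the mitochondrial serine hydroxymethyltransferase, stood at 11.61 with siTET2, against 12.09 with siControl, in LNCaP and at 11.08 against 11.74 in DU145, a common difference of -0.57 (SE 0.112, limma adjusted p = 0.0766). MTHFD2, a mitochondrial folate dehydrogenase, differed by -0.43 in LNCaP and -0.32 in DU145 (limma adjusted p = 0.130), and its cytoplasmic relative MTHFD1 by -0.24 and -0.32 (limma adjusted p = 0.195). With miR-29b the list's median was 0.0079 and 0 genes passed.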
